A study of Mus musculus with 6 samples.

Results

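The genes described here encode transcription factors known from blood stem and progenitor cells. They are the RUNX genes Runx1, Runx2 and Runx3 and their partner Cbfb, the repressor genes Gfi1 and Gfi1b, the C/EBP genes Cebpa, Cebpb and Cebpg, and Ikzf2 of the IKAROS family. These 10 genes were picked by name out of 23896 genes with a RefSeq transcript in the count data, and each was followed through its transcript with the highest mean count. Their mRNA was followed by sequencing in MEL cells, a leukemic mouse cell line that makes hemoglobin after DMSO is given. Cultures were sampled before treatment (day 0) and after 2 and 4 days in 2% DMSO, with 2 biological replicates per day and 6 libraries in all. Between 35294930 and 53899476 read counts fell on RefSeq transcripts in a library, where a read shared by isoforms can count for each. All groups are the same cell line, and the data give mRNA abundance relative to the whole library, so fewer cells making an mRNA and less of that mRNA per cell cannot be told apart.

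RUNX proteins bind DNA through their Runt domain and do so stably only as a dimer with CBFβ, the product of Cbfb, which makes no DNA contact of its own. RUNX1 is required for the first blood stem cells of the embryo and later for platelets and lymphocytes, RUNX2 is best known from bone, and RUNX3 from T cells and sensory neurons. GFI1 and GFI1B are zinc finger repressors whose SNAG domain binds the histone demethylase LSD1 with its CoREST partners. GFI1 acts mainly in granulocytes and lymphocytes, and GFI1B in red cell precursors and megakaryocytes. C/EBPα and C/EBPβ are leucine zipper activators of the granulocyte and macrophage programs, whereas C/EBPγ lacks a strong activation domain and pairs with other leucine zipper proteins. IKAROS family proteins, among them Helios (Ikzf2), are zinc finger factors that work with the NuRD chromatin remodeling complex and are best known from lymphocytes.

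Of the 10 genes, 8 had enough reads to be tested. Runx2 had 1 count in day 0 replicate 1 and none in the other libraries. A count of 0 allows up to 3 counts, which is 0.0557 to 0.085 CPM, the usual unit of counts relative to library size, over the libraries. Gfi1 had 4 and 2 counts in the day 0 libraries, 5 and 4 at day 2, and 9 and 2 at day 4, and was also left untested. Thus Runx1 and Runx3 were the RUNX genes, and Gfi1b the GFI1 family gene, with enough reads to be tested at this depth. The erythroid markers place the course of the treatment: of the 10 measured here, 9 rose and 1 fell between day 0 and day 4, beside 35.5% higher and 36.4% lower of all genes tested, with a median log2 fold change of 3.92. The exception, named after its values were seen, was Klf1 (log2 fold change -0.54, SE 0.18, edgeR adjusted p = 0.0188). Its call was lost without day 0 replicate 2 (-0.17), day 4 replicate 1 (-0.55) or day 4 replicate 2 (-0.54). Among the genes that rose, Gata1 (0.37, SE 0.11, edgeR adjusted p = 0.00772) lost its call without day 4 replicate 2 (0.36). It too was named after its values were seen.

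By day 2, all 8 tested genes had changed, with Runx1 and Gfi1b higher and Runx3, Cbfb, Cebpa, Cebpb, Cebpg and Ikzf2 lower (edgeR quasi-likelihood test, Benjamini-Hochberg adjusted p below 0.05). These 8 of 8 calls stand beside a background of 62.5% of the 12381 genes tested, and the split of 2 higher and 6 lower beside 31% higher and 31.5% lower. From day 2 to day 4 only Cbfb changed again, downward, which is 1 of 8 genes beside a background of 30.3% called, 14% higher and 16.2% lower. Over the whole course, day 4 against day 0, the same 2 genes were higher and the same 6 lower, where 71.8% of genes were called, 35.5% higher and 36.4% lower. The 8 genes had a median log2 fold change of -0.62 by day 2, -0.11 between days 2 and 4 and -0.82 over the course, where that of the 12381 genes was 0.01, 0 and -0.02. Because 62.5% of genes changed by day 2 and 71.8% by day 4, the number of calls alone does not set these factors apart, and their sizes and directions are given gene by gene. Some calls depended on single libraries, as they did over all transcripts. Without day 2 replicate 1 or replicate 2, fewer of these genes, and fewer of all transcripts, were called by day 2. Without day 0 replicate 1 or replicate 2, more of these genes, and more of all transcripts, were called between days 2 and 4.

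Scaling to total counts alone moved the median of the 18351 transcripts to 0.22 by day 2, -0.09 between days 2 and 4 and 0.11 over the course. Calls by day 2 shifted from 5847 higher and 5792 lower to 7593 higher and 4187 lower, and those between days 2 and 4 from 2682 and 3002 to 1880 and 3787. No tested factor changed its direction between days under that scaling, but the day 2 falls of Cebpa and Cebpg lost their calls, leaving 2 factors higher and 4 lower.

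**Figure D1:**
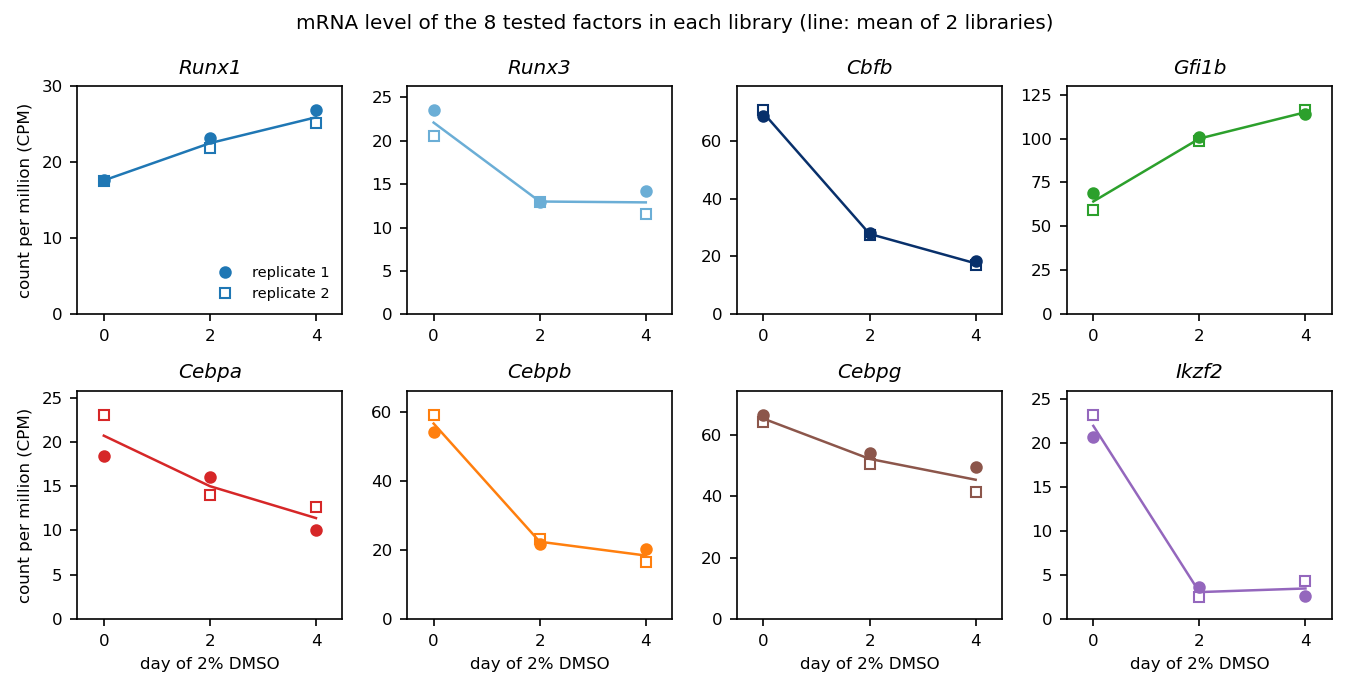
CPM (scaled with TMM factors) of the 8 tested genes against day of DMSO treatment, with a filled circle for replicate 1, an open square for replicate 2 and a line through the mean of each day. Runx1 and Gfi1b climb to 25.1 to 26.8 and 114 to 116 CPM at day 4, whereas the other 6 genes fall, Ikzf2 from 20.6 and 23.1 to 3.59 and 2.52 CPM by day 2.

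Runx1 (NM_001111021, chromosome 16 from 92601466 to 92826074 of GRCm38) was measured at 17.6 and 17.5 CPM in the day 0 replicates, 23.2 and 21.8 CPM at day 2, and 26.8 and 25.1 CPM at day 4. In CPM the days did not overlap, and day 4 lay above day 2, which lay above day 0, whereas in TPM days 2 (15.4 and 14.4) and 4 (15.8 and 14.4) overlapped. Between day 0 and day 4 Runx1 rose 1.48-fold (log2 fold change 0.56, SE 0.12, edgeR adjusted p = 0.00112). Its change by day 2 was also called (0.36, SE 0.12, edgeR adjusted p = 0.0186), and the step from day 2 to day 4 missed the threshold (0.20, edgeR adjusted p = 0.205). The day 2 call rests on both day 2 libraries, since without replicate 1 the log2 fold change was 0.31 (edgeR adjusted p = 0.127) and without replicate 2 it was 0.41 (edgeR adjusted p = 0.0592).

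Runx3 (NM_019732, chromosome 4 from 135120645 to 135177990) went the other way. It stood at 23.5 and 20.6 CPM at day 0, 13.0 in both libraries at day 2, and 14.2 and 11.6 CPM at day 4. The fall was 1.71-fold by day 4 (log2 fold change -0.78, SE 0.14, edgeR adjusted p = 0.000407) and had the same size by day 2 (-0.77, SE 0.14, edgeR adjusted p = 0.000636). In CPM the day 2 and day 4 libraries overlapped, whereas in TPM those of day 4 (12.7 and 10.1) lay below those of day 2 (13.0 and 12.9). The log2 fold change between them was -0.01 (edgeR adjusted p = 0.961) and turned to 0.13 without day 4 replicate 2. In TPM, the unit that also corrects for transcript length and so lets genes be compared, the ratio of Runx1 to Runx3 was 0.496 and 0.563 at day 0, 1.19 and 1.11 at day 2, and 1.25 and 1.43 at day 4. Runx3 was therefore the more abundant RUNX mRNA in untreated cells, and Runx1 in every treated library.

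Cbfb (NM_001161458, chromosome 8 from 105170674 to 105217989), the shared partner, fell at both steps. Its CPM was 68.7 and 70.5 at day 0, 28.1 and 27.5 at day 2, and 18.3 and 16.9 at day 4, with replicates closer to each other than to any library of another day. The log2 fold change was -1.32 by day 2 (SE 0.11, edgeR adjusted p = 2.88e-06), -0.66 from day 2 to day 4 (SE 0.11, edgeR adjusted p = 0.00175) and -1.98 over the course (SE 0.11, edgeR adjusted p = 1.04e-07), a 3.95-fold fall. The mRNA of the partner thus fell while that of Runx1 rose. On the TPM scale, Runx1 and Runx3 together amounted to 0.380 and 0.340 of Cbfb at day 0, 0.752 and 0.742 at day 2, and 1.30 and 1.24 at day 4, a sum that was looked at after the values of its genes were seen. RUNX mRNA was scarcer than Cbfb mRNA before treatment and in excess of it at day 4, although mRNA ratios are not protein ratios.

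A transcription start of each RUNX gene has the same short sequence nearby, shown because the family's members changed in opposite directions. RefSeq promoter windows of GRCm38.p6, 250 bases before to 50 after a start, were found for 9 of the 10 genes (12 windows), the exception being Ikzf2. They were searched on both strands for TGTGGT, the core letters bound by RUNX. In a window of each of Runx1, Runx2 and Runx3 the reverse complement ACCACA occurs 2 times with 2 bases between. This spacing was picked after it was seen in these windows, and 7 of 32817 windows (0.0213%), these among them, have it. At least 1 TGTGGT is in 16.8% of windows, and at least 2 are in 1.27% over the 250 bases before the start. The stretches of 20 bases are given 5′ to 3′ on the gene's strand with ACCACA in capitals:
Runx1 (chr16:92826030-92826049, minus strand, 29 bases after the distal start, in an exon annotated as UTR): acaACCACAgaACCACAagt
Runx2 (chr17:44814588-44814607, minus strand, 24 bases after the start, in an exon annotated as UTR or coding by isoform): acaACCACAgaACCACAagt
Runx3 (chr4:135120508-135120527, plus strand, 134 bases before the distal start, outside annotated exons): tcaACCACAgaACCACAagg
The Runx1 and Runx2 stretches are identical over the 20 bases. A match describes the letters, not binding, and the pair is present alike at Runx1, which rose, at Runx3, which fell, and at Runx2, which was at or near 0. The proximal starts of Runx1 and Runx3 and the start of Cbfb have no TGTGGT in their windows. The 4 RefSeq transcripts of Runx1 had nearly the same counts, such as 717 and 662 in day 0 replicate 1, and log2 fold changes of 0.56 to 0.60 over the course, so the use of its promoters was not resolved.

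Gfi1b (NM_001160406, chromosome 2 from 28609450 to 28621982) had the highest TPM of these factors in every treated library. It was measured at 69.0 and 59.4 CPM at day 0, 101 and 98.7 CPM at day 2, and 114 and 116 CPM at day 4. In CPM no day overlapped another. The rise was 1.79-fold by day 4 (log2 fold change 0.84, SE 0.11, edgeR adjusted p = 3.44e-05), with 0.64 by day 2 (SE 0.11, edgeR adjusted p = 0.000391) and 0.20 after it (edgeR adjusted p = 0.181). In TPM, Gfi1b had 126 and 105 at day 0, 217 and 209 at day 2, and 217 and 214 at day 4. Days 2 and 4 thus overlapped in TPM.

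The bases before the start of Gfi1b are shown because GFI1 and GFI1B bind AATC cores, and GFI1B is known to act on its own promoter. On both strands, the window was searched for the GFI1 letters AAATCA, for the GATA factor letters AGATAA, for the RUNX letters given before and for the C/EBP letters TTGCNNAA. Among the letters searched only AAATCA, in capitals, occurs in the 250 bases before the start, 34 bases from it, as it does in 12.4% of the windows of all genes over that stretch. Other AATC cores, and TGATAA, also occur there outside the letters searched and are not in capitals:
Gfi1b (chr2:28621983-28622232 of GRCm38.p6, minus strand): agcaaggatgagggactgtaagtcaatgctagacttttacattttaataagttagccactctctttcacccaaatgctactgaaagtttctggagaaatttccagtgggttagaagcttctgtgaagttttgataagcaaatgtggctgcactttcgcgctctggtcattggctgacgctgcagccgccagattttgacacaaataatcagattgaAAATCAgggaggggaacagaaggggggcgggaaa
This stretch is 44.4% G or C. AGATAA, which 9.99% of windows hold before the start, was in none of the 12 windows of these genes, a statement about these letters and stretches only.

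Ikzf2 (NM_011770, chromosome 1 from 69531207 to 69687351), which encodes Helios, showed the largest change of the 8 genes by day 2 and by day 4. It had 20.6 and 23.1 CPM at day 0, 3.59 and 2.52 CPM at day 2, and 2.66 and 4.29 CPM at day 4. The untreated libraries were far above the treated ones, and days 2 and 4 overlapped. The fall was 7.19-fold by day 2 (log2 fold change -2.85, SE 0.23, edgeR adjusted p = 2.23e-06) and 6.24-fold by day 4 (-2.64, SE 0.22, edgeR adjusted p = 1.52e-06). From day 2 to day 4 the log2 fold change was 0.20 (SE 0.24, edgeR adjusted p = 0.549), which turned to -0.04 without day 2 replicate 2 and to -0.20 without day 4 replicate 2. The counts behind the low values were 150 and 124 at day 2 and 96 and 194 at day 4.

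Cebpb (NM_001287738, chromosome 2 from 167688915 to 167690432) was the most abundant in TPM of the 3 C/EBP genes described in untreated cells and had the largest fall of the 3. Its CPM was 54.2 and 59.0 at day 0, 21.7 and 23.1 at day 2, and 20.3 and 16.5 at day 4. Day 0 stood far above the rest, and every day 4 library lay just below those of day 2. The fall by day 2 was 2.52-fold (log2 fold change -1.33, SE 0.13, edgeR adjusted p = 7.9e-06), that by day 4 was 3.08-fold (-1.62, SE 0.13, edgeR adjusted p = 1.05e-06), and the second step was not called (-0.29, edgeR adjusted p = 0.115). The second step was called without day 0 replicate 1 (-0.30, edgeR adjusted p = 0.039), without day 0 replicate 2 (-0.29, edgeR adjusted p = 0.0409) and in a fit of only the days compared (-0.30, edgeR adjusted p = 0.0483). Exons of Tmem189 on the opposite strand cover 20.7% of the exonic bases of Cebpb, and whether the counting used strand is not given in the sources used here. Tmem189 itself had 22.5 and 19.3 CPM at day 0, 17.9 and 19.6 CPM at day 2, and 26.5 and 26.9 CPM at day 4, and its part in the counts of Cebpb was not tested.

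Cebpa (NM_001287514, chromosome 7 from 35119293 to 35121928) was the least abundant per length of the 3 C/EBP genes described, at 18.4 and 23.0 CPM at day 0, 16.0 and 14 CPM at day 2, and 10.1 and 12.6 CPM at day 4. In CPM each day lay below the day before without overlap, whereas in TPM days 0 (23.3 and 28.2) and 2 (23.7 and 20.6) overlapped. Its log2 fold change was -0.86 by day 4 (SE 0.16, edgeR adjusted p = 0.000492) and -0.47 by day 2 (SE 0.16, edgeR adjusted p = 0.0221). The day 2 call was lost with total counts (-0.27, edgeR adjusted p = 0.139), without day 0 replicate 2 (-0.30, edgeR adjusted p = 0.1), without day 2 replicate 1 (-0.56, edgeR adjusted p = 0.0544) and without day 2 replicate 2 (-0.37, edgeR adjusted p = 0.175). From day 2 to day 4 it was not called (-0.40, edgeR adjusted p = 0.0811). It was called there with total counts (-0.48, edgeR adjusted p = 0.0337), with no filter (-0.40, edgeR adjusted p = 0.0257), in a fit of only the days compared (-0.40, edgeR adjusted p = 0.0236), without day 0 replicate 1 (-0.40, edgeR adjusted p = 0.0199) and without day 0 replicate 2 (-0.40, edgeR adjusted p = 0.0216).

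Cebpg (NM_009884, chromosome 7 from 35046422 to 35056566), a neighbor of Cebpa on the chromosome, stood at 66.4 and 64.2 CPM at day 0, 54.1 and 50.4 CPM at day 2, and 49.4 and 41.3 CPM at day 4. In TPM days 0 (46.9 and 43.8) and 2 (44.7 and 41.3) overlapped, which they did not in CPM. The log2 fold change was -0.53 by day 4 (SE 0.12, edgeR adjusted p = 0.00166) and -0.32 by day 2 (SE 0.11, edgeR adjusted p = 0.0297). The latter call was lost with total counts (-0.12, edgeR adjusted p = 0.389) and when day 2 replicate 1 (-0.37, edgeR adjusted p = 0.0891) or day 2 replicate 2 (-0.27, edgeR adjusted p = 0.199) was left out. The TPM ratio of Cebpg to Cebpb was 0.391 and 0.347 at day 0, 0.794 and 0.696 at day 2, and 0.779 and 0.798 at day 4. The ratio of Cebpb to Cebpa was 5.15 and 4.47 at day 0, 2.37 and 2.88 at day 2, and 3.49 and 2.29 at day 4, so that Cebpb was the more abundant of that pair in every library.

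The starts of Cebpb and Cbfb, the 2 genes with the largest falls after Ikzf2 and with a window, are shown for their base composition, which differs from that of Gfi1b. Runx1, which also rose, has 67.6% G or C before its proximal start and 45.6% before its distal start. The untested Runx2 has 44.8%, and the untested Gfi1 has 57.6% and 59.2% in its windows. The share over the windows of all genes was not computed, and a tie to the direction of change was not tested. None of the 4 motifs occurs in the bases shown, which are 81.6% G or C at Cebpb and 69.2% at Cbfb:
Cebpb (chr2:167688665-167688914 of GRCm38.p6, plus strand): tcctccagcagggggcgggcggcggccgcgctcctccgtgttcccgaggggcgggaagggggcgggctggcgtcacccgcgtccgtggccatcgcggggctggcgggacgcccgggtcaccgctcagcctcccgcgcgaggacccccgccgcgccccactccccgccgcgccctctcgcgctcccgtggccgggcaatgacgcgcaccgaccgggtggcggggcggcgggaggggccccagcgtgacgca
Cbfb (chr8:105170424-105170673 of GRCm38.p6, plus strand): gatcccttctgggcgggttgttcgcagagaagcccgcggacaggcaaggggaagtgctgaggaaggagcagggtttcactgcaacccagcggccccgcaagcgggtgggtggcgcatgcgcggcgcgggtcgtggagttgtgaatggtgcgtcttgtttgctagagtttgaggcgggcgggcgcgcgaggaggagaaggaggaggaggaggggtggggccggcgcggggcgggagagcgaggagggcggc
Before the start, TTGCNNAA was held by 9.57% of the windows of all genes and by 2 of the 12 windows of these factors, 1 each of Runx2 and Gfi1.

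**Figure D2:**
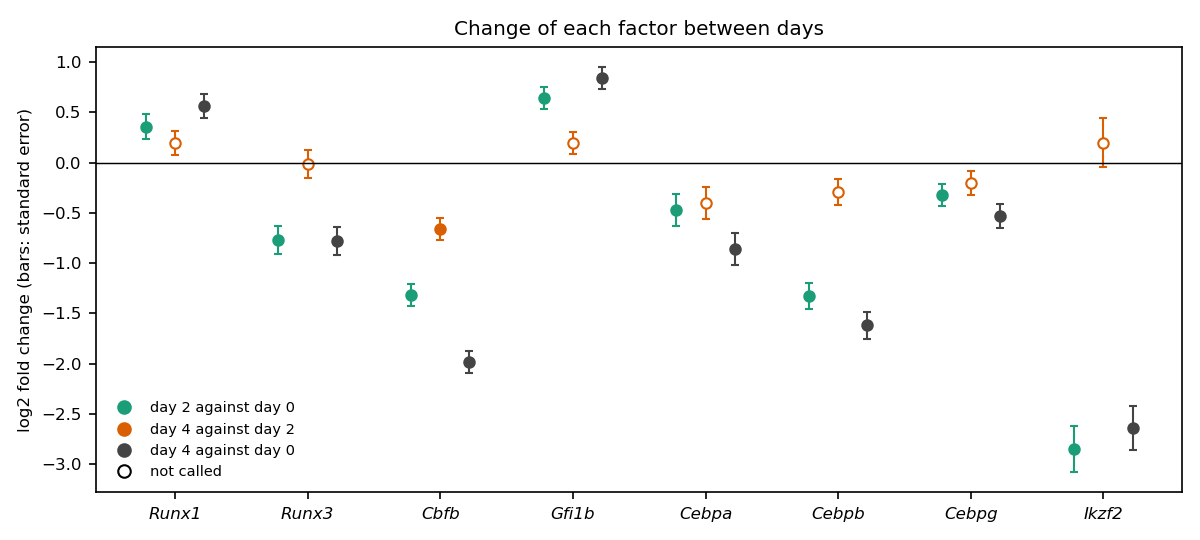
Log2 fold change of each of the 8 tested genes between days, with bars for the standard error, filled points for called changes and open points for those not called. Ikzf2 has the lowest points, at -2.85 by day 2 and -2.64 by day 4, and Cbfb alone has a filled point for the step between days 2 and 4 (-0.66).

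Whether a change lay mainly in the first step was tested by the difference of the steps, (day 4 minus day 2) minus (day 2 minus day 0), in which a fall that slows gives a positive value. The difference was called for 4 of 8 genes, each positive: Ikzf2 (log2 3.05, SE 0.42, edgeR adjusted p = 0.000602), Cebpb (1.05, SE 0.23, edgeR adjusted p = 0.00694), Runx3 (0.75, SE 0.24, edgeR adjusted p = 0.0384) and Cbfb (0.67, SE 0.19, edgeR adjusted p = 0.0232). Over all tested genes 30% were called, 13.1% positive and 16.9% negative. The falls of these 4 genes were thus steeper before day 2 than after it. For Runx1 (-0.16, edgeR adjusted p = 0.581), Gfi1b (-0.44, edgeR adjusted p = 0.0921), Cebpa (0.07, edgeR adjusted p = 0.865) and Cebpg (0.12, edgeR adjusted p = 0.688) no difference between the steps was detected. Both steps share the day 2 libraries. Without day 2 replicate 1 the calls of Cebpb (0.96), Runx3 (0.75) and Cbfb (0.69) were lost. The same 3 were lost without day 2 replicate 2 (1.13, 0.75 and 0.63). Far fewer of all transcripts were called in these fits, so the losses are not particular to these genes. Without day 4 replicate 1, where fewer of all transcripts were called, Runx3 (0.60) and Cbfb (0.60) were lost. Without day 0 replicate 1, where more of all transcripts were called, Gfi1b was called (-0.56).

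With total counts, which moved the median difference of the steps over the 18351 transcripts to -0.31 and the calls from 2406 positive and 3108 negative to 1293 and 5310, Ikzf2 and Cebpb were called positive and Gfi1b negative (-0.72, edgeR adjusted p = 0.0133). Runx3 (0.48, edgeR adjusted p = 0.169) and Cbfb (0.39, edgeR adjusted p = 0.151) lost their calls under that scaling, and the values of Cebpa (-0.21) and Cebpg (-0.16) changed sign without being called.

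Ordered by mean TPM, the untreated cells had Cebpb at 123 ± 4.44 and Gfi1b at 115 ± 15.0 (SD, n = 2), which overlapped, followed by Cbfb at 78.7 ± 0.481, Cebpg at 45.3 ± 2.17, Cebpa at 25.7 ± 3.49, Runx3 at 18.6 ± 2.14, Runx1 at 9.79 ± 0.254 and Ikzf2 at 7.70 ± 0.435. By day 4, Gfi1b stood alone at 215 ± 2.18, and Cebpb was next at 41.8 ± 6.80. Cebpg (32.9 ± 4.79) and Cbfb (20.9 ± 1.59) followed, then Runx1 (15.1 ± 1.01) and Cebpa (14.8 ± 1.96), whose libraries overlapped, Runx3 (11.4 ± 1.84) and Ikzf2 (1.27 ± 0.397). At day 2 the order was Gfi1b (213 ± 5.49), Cebpb (57.8 ± 2.15), Cebpg (43.0 ± 2.39), Cbfb (37.3 ± 0.756), Cebpa (22.2 ± 2.21), Runx1 (14.9 ± 0.761), Runx3 (12.9 ± 0.0675) and Ikzf2 (1.28 ± 0.324), with no overlap between neighbors. Gfi1b and Cebpb were thus close to each other before treatment and far apart in treated cells.

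**Figure D3:**
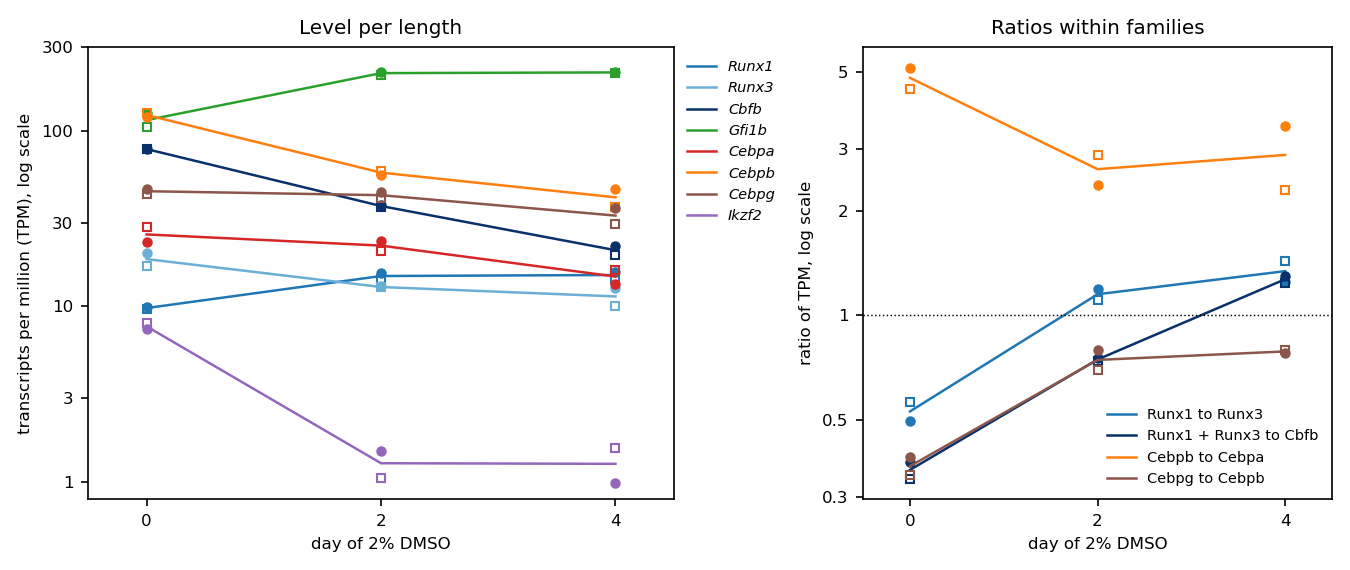
Left, TPM of the 8 genes on a log axis against day of DMSO, with filled circles for replicate 1, open squares for replicate 2 and lines through the means. Right, TPM ratios on a log axis with a dotted line at 1. Gfi1b separates from Cebpb after day 0, and Runx1 to Runx3 crosses 1 by day 2, whereas the sum of Runx1 and Runx3 to Cbfb crosses it by day 4.

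The cofactors of RUNX and CBFβ were examined as a list of 15 genes, the ETO family, Groucho-type TLE corepressors, HIPK kinases, acetyltransferases and the like. Of 14 tested, 8 were higher and 1 lower at day 4 than at day 0 (7 and 2 without day 0 replicate 1), beside 35.5% higher and 36.4% lower of all genes tested, with a median log2 fold change of 0.41 beside -0.02. As 71.8% of all genes were called, the number of calls in this list and in those that follow is no result about them. Tle2, a Groucho-type corepressor, rose most (log2 fold change 2.86, SE 0.20, edgeR adjusted p = 3.5e-07), from 3.92 and 2.78 CPM at day 0 to 20.6 and 27.8 CPM at day 4. The histone acetyltransferase gene Ep300 (0.87, SE 0.11, edgeR adjusted p = 2.79e-05) and the kinase gene Hipk1 (1.02, SE 0.12, edgeR adjusted p = 1.36e-05) rose over the course. Prmt1, an arginine methyltransferase that modifies RUNX1, was the exception, with 209 and 188 CPM at day 0, 56.1 and 57.2 CPM at day 2, and 50.7 and 43.6 CPM at day 4 (log2 fold change -2.08, SE 0.12, edgeR adjusted p = 9.86e-08). Cbfa2t3, which encodes ETO2, had the highest mean CPM of the list over the 6 libraries. It had 206 and 258 CPM at day 0, 181 and 172 CPM at day 2, and 209 and 173 CPM at day 4. By day 2 it was called lower (-0.39, SE 0.14, edgeR adjusted p = 0.029). That call was lost without day 0 replicate 2 (-0.23), day 2 replicate 1 (-0.43) or day 2 replicate 2 (-0.35). Over the course Cbfa2t3 was not called (-0.28, edgeR adjusted p = 0.088) except without day 0 replicate 1 (-0.44). Runx1t1 had no count.

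Of the 11 genes for the corepressors that GFI1 and GFI1B reach through the SNAG domain, all were tested and 6 were higher and 2 lower at day 4 than at day 0 (7 and 2 with total counts; median log2 fold change 0.43), beside 35.5% higher and 36.4% lower of all genes. Among the genes that rose were Phf21a (log2 fold change 1.52, SE 0.12, edgeR adjusted p = 8.49e-07), Gse1 (1.40, SE 0.16, edgeR adjusted p = 1.56e-05) and the CoREST gene Rcor3 (1.17, SE 0.14, edgeR adjusted p = 1.64e-05), all of them partners of the LSD1 complex. Phf21a was at 14.2 and 16.1 CPM at day 0, 27.5 and 26.7 CPM at day 2, and 42.7 and 44.4 CPM at day 4. Hmg20b, named after its values were seen, was also called higher (0.43, SE 0.16, edgeR adjusted p = 0.0305). That call was lost without day 0 replicate 1 (0.17) and without any single library of days 2 and 4 (0.39 to 0.47). Kdm1a, the gene of LSD1 itself, was at 75.9 and 61.0 CPM at day 0 and 81.3 and 82.8 CPM at day 4 and was not called (0.26, edgeR adjusted p = 0.0657), although it was without day 0 replicate 1 (0.42, edgeR adjusted p = 0.00177). The 2 genes that fell were the histone deacetylase genes Hdac1 (-0.49, SE 0.12, edgeR adjusted p = 0.00445) and Hdac2 (-0.92, SE 0.12, edgeR adjusted p = 3.81e-05), and these and Kdm1a were named after their values were seen. Ehmt2 had the highest mean CPM of the list over the 6 libraries (168).

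The list of other IKAROS genes, NuRD subunits and CtBP corepressor genes had 2 higher, 9 lower and 5 not called of 16 tested at day 4 against day 0 (median log2 fold change -0.48), beside 35.5% higher and 36.4% lower of all genes. Without day 4 replicate 1 it was 1 higher and 8 lower, and without day 4 replicate 2 it was 1 and 9. Ikzf1, which encodes IKAROS, fell at both steps, from 113 and 107 CPM at day 0 to 78.6 and 75.6 CPM at day 2 and 51.8 and 55.8 CPM at day 4. Its log2 fold change over the second step was -0.52 (SE 0.10, edgeR adjusted p = 0.00368), a call lost without day 2 replicate 1 (-0.49, edgeR adjusted p = 0.0657). Ikzf4, the gene of Eos, rose while Ikzf2 fell, from 1.00 and 1.37 CPM to 10.9 and 11 CPM at day 4 (log2 fold change 3.19, SE 0.20, edgeR adjusted p = 2.02e-07). Ikzf3 had no count. Among NuRD genes, Rbbp7 (-2.06, SE 0.20, edgeR adjusted p = 3.61e-06), Chd3 (-1.55, SE 0.12, edgeR adjusted p = 1.07e-06) and Mbd3 (-1.26, SE 0.11, edgeR adjusted p = 1.63e-06) fell over the course, whereas Chd4, the most abundant of the list by mean CPM (609), was not called (-0.10, edgeR adjusted p = 0.455).

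The remaining C/EBP genes, their leucine zipper partners and the proteins that control C/EBP stability formed a list of 13, of which 12 were tested. At day 4 against day 0, 1 was higher and 8 lower (2 and 7 with total counts and without day 4 replicate 2, 2 and 9 without day 0 replicate 1), with a median log2 fold change of -1.01. Beside these counts, 35.5% of all genes tested were higher and 36.4% lower. Atf4, a stress-responsive partner that accounts for 52.4% of the summed CPM of the list, fell from 442 and 630 CPM to 247 and 234 CPM at day 2 and 179 and 128 CPM at day 4 (log2 fold change -1.80, SE 0.19, edgeR adjusted p = 7.71e-06). Ddit3, the C/EBP homologous protein gene induced by ATF4, fell as well (-1.60, SE 0.24, edgeR adjusted p = 0.000109), as did the pseudokinase genes Trib3 (-2.77, SE 0.30, edgeR adjusted p = 9.6e-06; -3.54 without day 4 replicate 1) and Trib2 (-1.36, SE 0.25, edgeR adjusted p = 0.000482), the latter known for directing C/EBPα to degradation. The exception among the called genes was Fbxw7, a ubiquitin ligase gene, which rose and was named after its values were seen (0.58, SE 0.11, edgeR adjusted p = 0.000458). Among those not called were Cebpd (-0.17) and Atf5 (0.33), also named after their values were seen. Atf5 had 62.4 and 25.1 CPM at day 4. It was called lower without day 4 replicate 1 (-0.47) and higher without day 4 replicate 2 (0.84). Batf3 was not tested.

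**Figure D4:**
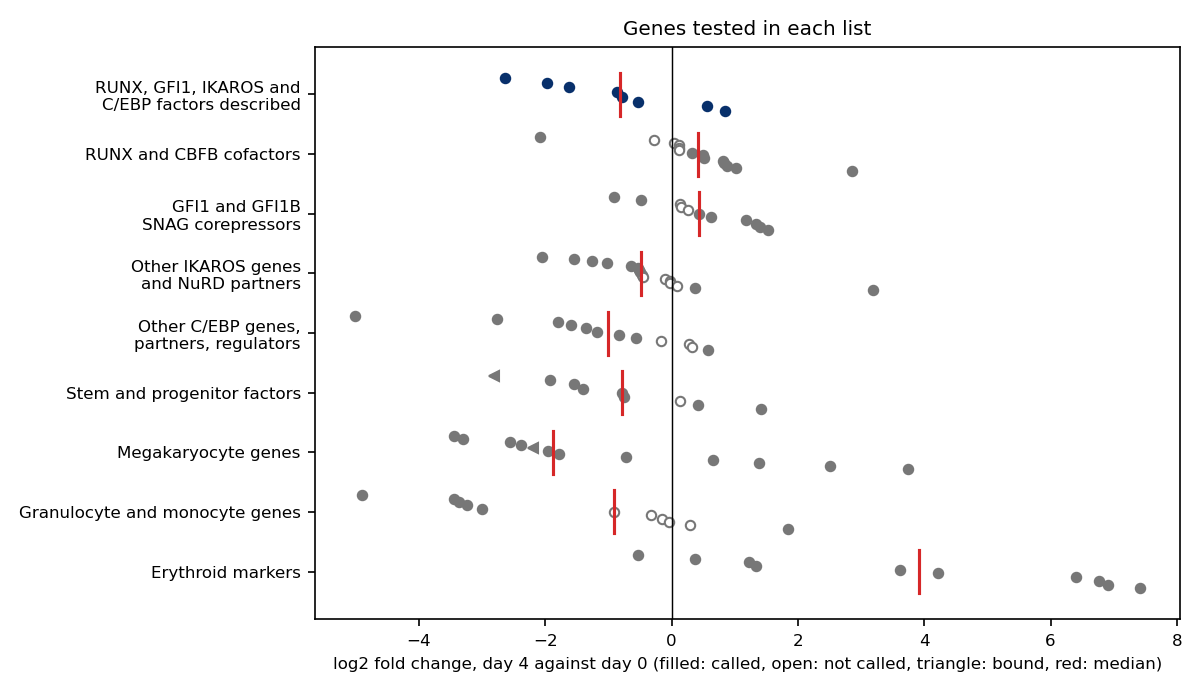
Log2 fold change over the course (day 4 to day 0) of the tested genes of the lists drawn, a row per list and without the mast cell, lymphocyte and macrophage markers, with filled points for called genes, open points for others and a red line at the list's median, and triangles at bounds for Kit and Ppbp, the genes drawn that had no count at day 4. The medians lie at -0.82 for the 8 factors described, 0.41 and 0.43 for the RUNX and GFI1 cofactors, -0.48 and -1.01 for the IKAROS and C/EBP lists, and 3.92 for the erythroid markers.

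Genes of the lineages in which these factors are best known were then counted. Of 22 granulocyte and monocyte genes 11 were tested, with 1 higher and 5 lower at day 4 than at day 0 (2 and 5 with total counts). The median log2 fold change was -0.91. Of all genes tested, 35.5% were higher and 36.4% lower. Ncf4 was called higher only without day 0 replicate 2 (0.46). Prtn3 was called lower only without day 0 replicate 1 (-0.48). Csf1r, named after its values were seen, was called lower only without day 4 replicate 1 (-1.48). These hold among the fits with a library left out. Csf2rb, a cytokine receptor subunit gene, made up 95.5% of the summed CPM of this list and rose from 378 and 385 CPM to 1440 and 1310 CPM (log2 fold change 1.85, SE 0.13, edgeR adjusted p = 4.7e-07). The summed CPM of the list was 423 and 435 at day 0, 542 and 629 at day 2, and 1470 and 1340 at day 4, which therefore follows Csf2rb. Fcgr3, an Fc receptor gene, fell (-3.45, SE 0.20, edgeR adjusted p = 1.21e-07). The 11 untested genes, among them the neutrophil elastase gene Elane and the granulocyte receptor gene Csf3r, had at most 3 counts in every library, and S100a8, S100a9, Ngp and Csf2ra had none. Other granulocyte genes were expressed in every library, Prtn3 at 8.84 to 14.2 CPM and Ncf4 at 10.3 to 20.9 CPM.

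Megakaryocyte genes, of which 12 of 18 were tested, moved in both directions. At day 4 against day 0, 4 were higher and 8 lower (4 and 7 with total counts), with a median log2 fold change of -1.87. These counts stand beside 35.5% higher and 36.4% lower of all genes tested. By day 2, 2 were higher and 7 lower, beside 31% higher and 31.5% lower of all genes tested. The day 4 calls of Gp9 (0.66) and Gp1bb (-0.72), both named after their values were seen, rested on single libraries. They were lost without day 0 replicate 2 (0.42 and -0.28) and without either day 2 library. Vwf (3.75, SE 0.20, edgeR adjusted p = 6.79e-08) and Gp1ba (2.51, SE 0.24, edgeR adjusted p = 3.89e-06) rose, whereas Gp5 (-3.30, SE 0.21, edgeR adjusted p = 1.94e-07) and the platelet factor gene Pf4 (-2.39, SE 0.16, edgeR adjusted p = 3.18e-07) fell. The summed CPM of the list was 584 and 638 at day 0, 294 and 310 at day 2, and 662 and 724 at day 4. At day 0 the most abundant gene of the list was Plek (283 and 326 CPM), which fell by day 2 to 58.3 and 49.0 CPM (-2.51, SE 0.13, edgeR adjusted p = 1.98e-07) and had 93.6 and 83.0 CPM at day 4. In the treated libraries it was Itga2b, at 196 and 219 CPM at day 2, which rose to 531 and 606 CPM at day 4 (1.46, SE 0.13, edgeR adjusted p = 9.56e-05). Of the 15 stem and progenitor factors 9 were tested, 2 of them higher and 6 lower at day 4 than at day 0 (median -0.78). Of all genes tested, 35.5% were higher and 36.4% lower over that course. By day 2, 1 was higher and 7 lower (2 and 7 with total counts), beside 31% higher and 31.5% lower of all genes tested. Lyl1 (-1.93, SE 0.15, edgeR adjusted p = 8.8e-07), Meis1 (-1.54, SE 0.15, edgeR adjusted p = 4.51e-06) and Lmo2 (-1.41, SE 0.11, edgeR adjusted p = 9.18e-07) fell, and Zfpm1, the gene of the GATA1 cofactor FOG1, rose (1.41, SE 0.11, edgeR adjusted p = 1.14e-06). Gata2 fell by day 2 (-0.66, SE 0.15, edgeR adjusted p = 0.00305) and rose from day 2 to day 4 (0.80, SE 0.15, edgeR adjusted p = 0.00356), a call lost without day 2 replicate 1 (0.81, edgeR adjusted p = 0.0525).

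Markers of other cells, Csf1r of the macrophage list being in the granulocyte list too, were low. The summed CPM of 8 mast cell and basophil markers was 6.42 and 6.83 at day 0, 0.599 and 0.712 at day 2, and 0.416 and 0.221 at day 4, with Ms4a2 the most abundant at day 0 and Cma1, named after its values were seen, in the treated libraries, and with Tpsb2, Mrgprb1 and Prss34 at 0. Of 9 lymphocyte markers the sum was 33.2 and 32.7 CPM at day 0, 20.6 and 17.7 CPM at day 2, and 9.56 and 9.83 CPM at day 4, of which Ptprc, found on nucleated blood cells at large, made up 94.4%, and Ms4a1 and Il7r were at 0. The 8 macrophage markers summed to 6.40 and 6.33 CPM at day 0, 1.48 and 1.49 CPM at day 2, and 2.49 and 2.23 CPM at day 4, with Cd68 the most abundant and C1qa among those at 0. Each sum was lower at day 2 than at day 0, as were Ikzf2, Runx3 and Cebpb, and their part in the result was not tested. Of all genes tested, 35.5% were higher and 36.4% lower at day 4 than at day 0. At day 4 against day 0, 0 of 4 mast cell markers tested were higher and 3 lower (1 and 3 without day 0 replicate 1), 1 of 3 lymphocyte markers higher and 2 lower, and 0 of 2 macrophage markers higher and 1 lower (0 and 2 without day 4 replicate 1).

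Genes with the pattern most like the RUNX, GFI1 and C/EBP member of highest mean CPM, and like Cbfb and Ikzf2, were sought among 8895 genes (average log2 CPM 3 or more) by the distance between centered log2 CPM values over the 6 libraries. Nearest to Gfi1b were Kdm4c (distance 0.043), Pfkfb2 (0.049) and Lrba (0.060), and nearest to Runx1 were Dop1a (0.048), Pogk (0.085) and Stau1 (0.095). Cbfb was followed by the chaperonin gene Hspe1 (0.131), the pyrimidine synthesis gene Cad (0.152) and Heatr1 (0.153), a ribosome biogenesis gene, and Cebpg by Riok1 (0.082), Polr3e (0.093) and Krr1 (0.094). Ikzf2 had no near match, its closest genes being Scd2 (0.449), Tec (0.521) and Aqp9 (0.526). With 3 days and 2 replicates many genes share a pattern by this measure, so the names describe the shape of the curves only.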

How the data were processed

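The authors built poly(A)-selected stranded libraries, trimmed them with cutadapt, used TopHat for alignment (mm10), and deposited unadjusted counts for each RefSeq transcript in 6 libraries. The submitters' notes name HTSeq; its strand and overlap settings are not given in the sources used here. Reads on no feature were left out. They made up 50.53% to 58.36% of the sum of such reads and the counts on transcripts. In that sum a read shared by isoforms can count more than once, and other unassigned reads are not included. Counts of 32654 transcripts were fitted with edgeR 4.0.16 (R 4.3.3), using TMM factors (0.921 to 1.07), filterByExpr with day as group, which kept 18351 transcripts, and a quasi-likelihood model with a mean per day. P-values were adjusted over 18351 transcripts (Benjamini-Hochberg), with calls below 0.05. The SE is the log2 fold change divided by the square root of F. A gene stands as its transcript with the highest mean count. TPM used GENCODE M21 lengths, 1 transcript per gene. Isoforms of a gene share reads. Named genes are every member and, per list and comparison, up to 4 called genes with the largest change and an average log2 CPM of at least 1, plus the most abundant. Members and lists were chosen with earlier results of these data known. Protein sequences were not analysed here, and some genes of the lists are not reported here by name. Alternatives were DESeq2 1.42.0, other scalings, filters, transcripts and samples. The edgeR and DESeq2 fits of the 6 libraries were tested on simulated counts and called most of the transcripts changed there and few of the others. That simulation changed only a small share of transcripts, as many up as down. In the data 62.5% of genes were called by day 2, so it does not test the scaling under changes this wide.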

Additional observations from a re-analysis of the deposited data

How the results depend on the processing

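All 8 log2 fold changes for day 4 against day 0 kept their direction and call under DESeq2, relative log expression factors, total counts, scaling without globin transcripts, no filter, 1 transcript per gene, a fit of only the days compared and each library left out. So did those of Runx1, Cbfb and Gfi1b, the genes with transcripts of other counts, under their other transcripts. DESeq2 made the same number of calls in every comparison (8, 1, 8 and 4). With log2 fold changes limited to 1 or more in size, 3 genes were called by day 2, 0 between days 2 and 4, 3 over the course and 2 for the difference of the steps. For day 4 against day 2, total counts called 2 genes, no filter 2 and only the days compared 3, since Cebpa and in the last also Cebpb (-0.30, edgeR adjusted p = 0.0483) passed. With a library left out, the calls ranged from 5 to 8 for day 2 against day 0, from 1 to 3 for day 4 against day 2, and from 1 to 5 for the difference of the steps; the lone library of a day was then assumed to vary like the others. The lowest counts by day 2 and for the steps came without a day 2 library, where fewer of all transcripts were called. The highest between days 2 and 4 came without a day 0 library, where more of all transcripts were called. These ranges therefore do not set the 8 genes apart. Reversed values, none of them called, were the difference of the steps for Cebpa (-0.21 with total counts, -0.12 to 0.26 with a library left out) and Cebpg (-0.16, and -0.02 to 0.24). So were those of day 4 against day 2 for Runx3 (-0.16 to 0.13) and Ikzf2 (-0.20 to 0.49). The cause was not tested. Over the course DESeq2 called 7 RUNX and CBFB cofactors higher, 7 of the C/EBP list lower and 3 megakaryocyte genes higher, and the other list counts were the same. TPM over all transcripts was lower for each gene, such as 153 in place of 215 for Gfi1b at day 4.

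Replicate numbers 1 and 2 recur on each day, with only 2 pairs for each comparison. The differences between replicates correlated across transcripts by 0.0316 for days 0 and 2, 0.0451 for days 0 and 4 and 0.0791 for days 2 and 4, so the numbers were not taken to pair the libraries. With the number as a replicate block, the calls were again 8, 1, 8 and 4, and no log2 fold change of the 8 genes moved by more than 0.02. Low counts limit Ikzf2 after day 0, and Runx2 and Gfi1 at every day.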
